A study of Mus musculus with 19 samples.

Results

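The class IIa histone deacetylases Hdac4, Hdac5, Hdac7 and Hdac9 and the MEF2 transcription factors Mef2a, Mef2b, Mef2c and Mef2d were examined on 1-colour Agilent whole mouse genome arrays. Every probe that the scanner files name for 1 of these 8 genes was taken, which gave 8 of 27282 gene names and 17 of the 41174 probes on the array, 7 for the deacetylases and 10 for MEF2. Of these, 13 carry the name in every file and 4 in only the C2C12 files or only the soleus files. A_52_P175157 of Mef2a and A_51_P394676 and A_52_P334052 of Mef2d carry it in the C2C12 files alone. A_51_P255467 of Hdac9 carries it in the soleus files alone. Values of all 4 were taken from all arrays. There were 19 arrays, 1 per sample. C2C12 is a mouse myoblast line, and 6 arrays were of cells transfected with empty plasmids (WT) and 6 of cells transfected with human HDAC4 in pIRES neo3 and human HDAC5 in pIRES hyg3 (HDAC4&5). Both lines were selected with hygromycin B and geneticin at 500 µg/ml each, were grown without a differentiation step and were collected 48 h after plating at about 80% confluence. The remaining arrays were of soleus muscle from 12-week-old male C57BL6J mice fasted for 5 h, 3 heterozygous littermates (db -/+, Con) and 4 db/db mice (db +/+, db), a genetic model of obesity in which the leptin receptor does not signal. Each C2C12 group is 1 stably selected line grown in several wells, and no source used here says that its samples came from separate transfections, so p-values measure the spread between these wells. The methods name fewer biological replicates per group than there are C2C12 arrays, and whether some arrays are repeats of 1 culture is not given. RNA of 100 ng was labelled with Cy3 by the protocol, while the label field reads biotin. The 75th percentile of array intensity was 564 to 1691 in WT, 494 to 873 in HDAC4&5, 153 to 555 in Con and 180 to 686 in db, and between 46.8% and 57.5% of spots on an array were well above background.

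Class IIa deacetylases have little catalytic activity of their own and act mainly as scaffolds that bring corepressors to DNA-bound partners, of which MEF2 is the best known in muscle. Phosphorylation by calcium- or energy-sensing kinases lets 14-3-3 proteins hold them in the cytoplasm, which frees MEF2 to activate genes of contraction, metabolism and differentiation together with the MyoD family. In muscle, Hdac9 and Mef2c are themselves known as MEF2 targets, and HDAC4 is known for relaying the loss of nerve activity to the genes of the neuromuscular synapse.

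The probes are 60 bases long, and their positions are those of the files, on mm9. No gene models of that build were used here, so exon and UTR positions are not given. The Hdac4 probe lies on the minus strand at chr1:93829554-93829613 and the Hdac5 probe on the minus strand at chr11:102057068-102057122. Hdac7 has a pair of probes on the minus strand, A_51_P403234 at chr15:97624093-97624152 and A_52_P435016 at chr15:97623442-97623501. The 3 Hdac9 probes lie on the minus strand of chromosome 12, A_51_P204031 at chr12:35074257-35074316, A_52_P411780 at chr12:35056507-35056566 and A_51_P255467 at chr12:34735842-34735901. The 3 Mef2a probes lie on the minus strand, A_52_P175157 at chr7:74376573-74376632, A_52_P290579 at chr7:74379398-74379457 and A_52_P311841 at chr7:74379743-74379802. The Mef2b probes lie on the plus strand, A_51_P330580 at chr8:72691181-72691240 and A_52_P9878 at chr8:72689001-72689060. The Mef2c probes lie on the plus strand, A_51_P135802 at chr13:83802754-83802813 and A_52_P282110 at chr13:83717123-83717182. The Mef2d probes also lie on the plus strand, A_51_P394676 at chr3:87975777-87975836, A_51_P504672 at chr3:87972214-87972560 and A_52_P334052 at chr3:87972325-87972384. The probe A_51_P504672 covers 347 bases of genome and so spans a gap between aligned blocks.

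The Hdac5 probe is shown in part because this gene had the largest rise of the 8 in C2C12, and it is the most AT-rich of the 17 probes, with 28.3% G and C. Its last 30 bases are shown with the hexamer ATTAAA, the common variant of the polyadenylation signal, in capitals.
Hdac5 A_51_P278893: tattttttctATTAAAaacaaaaagtcaca
A Mef2a and a Mef2d probe are shown because the MEF2 genes are related in sequence. In the best ungapped alignment of the pair, 47 bases overlap and 26 of them are identical (55.3%), which the capitals mark.
Mef2a A_52_P311841: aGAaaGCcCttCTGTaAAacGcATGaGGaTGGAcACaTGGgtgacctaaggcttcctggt
Mef2d A_51_P504672: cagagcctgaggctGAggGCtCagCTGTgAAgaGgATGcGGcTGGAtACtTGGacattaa
An Hdac9 probe and the Mef2b probe with no array well above background are shown whole, since the falls below detection and the absence of signal described below rest on such probes.
Hdac9 A_51_P204031: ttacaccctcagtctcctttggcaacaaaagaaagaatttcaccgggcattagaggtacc
Mef2b A_52_P9878: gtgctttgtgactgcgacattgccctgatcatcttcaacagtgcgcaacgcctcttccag

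Before the genes themselves, the labels were set against markers. WT cells carried the myoblast programme, with 7 of 8 myoblast markers well above background on every array. HDAC4&5 cells carried 6 of 8 on every array but at a lower level: the summed myoblast marker level, as a multiple of the array's 75th percentile and with outlier spots kept so that every array sums the same genes, was 145 to 306 in WT (median 239) and 13.9 to 16.6 in HDAC4&5 (median 14.6). The WT sums are capped, since Chrna1 was saturated on 6, Cdh15 on 5 and Des on 2 of the WT arrays. Myod1, the defining transcription factor, was not well above background on any HDAC4&5 array, at least 260-fold lower than in WT. Slow fibre markers summed to between 27.4 and 31.6 in WT and between 1.38 and 1.54 in HDAC4&5, with 7 of 8 lower and 1 higher past the test, of which 5 entered only through WT; the 3 others were 2 lower and 1 higher. Fast fibre markers summed to between 56.1 and 65.5 and between 0.554 and 0.803, with 5 of 5 tested genes lower, 2 of them tested through WT alone. Endothelial markers were near background in both lines, well above it for 0 or 1 of 8 genes in WT and 0 to 2 of 8 in HDAC4&5. Of 3 macrophage markers tested 1 rose and 1 fell, of 5 fibroblast markers 3 rose and 2 fell, of 4 Schwann cell markers 1 rose and 2 fell, and of the pairs of adipocyte and epithelial markers tested 1 rose and 1 fell in each; the 1 lymphocyte marker tested did not pass and the 1 erythroid marker fell. The HDAC4&5 samples thus lack the defining myoblast marker at the depth of these arrays. Whether the marker difference has a part in the differences of the deacetylase and MEF2 genes was not tested. In bulk RNA, fewer cells of a type and less RNA per cell cannot be told apart.

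In C2C12 cells the class IIa deacetylases split by gene. Hdac5 and Hdac7 rose with HDAC4&5, and Hdac4 did not pass the test. Hdac9 was well above background in WT and not in HDAC4&5 at its tested probes. Across all genes 14650 of 21432 probes passed limma's test at an adjusted p (Benjamini-Hochberg) under 0.05, which is 68.4% of those tested (36.5% higher and 31.9% lower), so a call alone sets few genes apart here. In the authors' deposited matrix, whose values follow the scanner signal of the same C2C12 arrays up to a constant, 39.2% of the calls were higher, against 53.4% in the scanner values. Of the 17 probes, 14 were tested, being well above background on all arrays of either line or of both, and 12 of them passed, 3 higher and 9 lower. Of the 14, 4 entered the test only through WT, where they were high and so had to differ, and of the 10 others 8 passed, beside 67.8% of all probes with a signal well above background throughout both lines. Among these 10, groups did not overlap for 8, beside 51.2% of all probes above background throughout both lines, and 3 changed at least 2-fold past the adjusted p, beside 15.9%. The 3 were the probe of Hdac5, A_52_P175157 of Mef2a and A_51_P394676 of Mef2d. The median log2 difference of all tested probes was 0.05, against 0.16 with normexp background correction and -0.09 in the deposited matrix.

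The Hdac4 probe read 0.17 at its lowest, 0.29 at the median and 0.36 at its highest in WT, as log2 intensity from the 75th percentile of its array, the scale of all levels below. It read 0.15, 0.23 and 0.30 in HDAC4&5. The ranges overlapped, and the log2 difference of -0.05 (standard error 0.05, 95% interval -0.15 to 0.05) did not pass (limma, adjusted p = 0.366). The plasmid carries the human gene, and whether mouse probes detect the human transcripts was not tested. The Hdac4 probe is therefore not read as a check of either line's label.

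Hdac5 read 1.88, 1.99 and 2.73 in WT (lowest, median, highest) and 2.77, 3.49 and 4.40 in HDAC4&5. All 6 HDAC4&5 arrays lay above all 6 WT arrays, but by only a small gap, since both groups were highest on slide 2. The log2 difference was 1.42 (standard error 0.27, limma, adjusted p = 0.000388), a fold of 2.67. Within slides 1, 2 and 3 it was 1.40, 1.66 and 1.19. The HDAC4&5 cells carry human HDAC5 on a plasmid, and whether this probe detects its transcript was not tested.

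Hdac7, the member of the class best known from endothelium and thymus, rose at both of its probes. A_51_P403234 read -1.42, -1.13 and -0.99 in WT and -0.52, -0.32 and -0.07 in HDAC4&5 (lowest, median, highest). The log2 difference was 0.86 (standard error 0.09, limma, adjusted p = 1.62e-06), a fold of 1.82. A_52_P435016 went from 0.96, 1.06 and 1.27 to 1.59, 1.78 and 2.13, a log2 difference of 0.74 (standard error 0.11, limma, adjusted p = 3.41e-05). Neither probe's groups overlapped, and the 6 within-slide differences of the pair lay between 0.58 and 0.97.

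Hdac9, which encodes a full-length enzyme and the truncated MITR form that lacks the catalytic part, went the other way. A_52_P411780 read -3.34, -3.31 and -2.99 in WT, well above background on all 6 arrays. In HDAC4&5 it was well above background on 0 of 6 arrays, with measured values of -8.14, -7.44 and -5.78. It was at least 4.42-fold lower in HDAC4&5, a bound set by the dimmest signal that counted as well above background. With normexp, which compresses dim signals, the log2 difference was -0.60 and did not pass (limma, adjusted p = 0.169). A_51_P204031, with its sequence above, read -5.08, -3.86 and -3.60 in WT and was well above background on 0 of 6 HDAC4&5 arrays, at least 2.34-fold lower. With normexp its difference was -0.05 (limma, adjusted p = 0.913). Both probes entered the test only through WT, so no p-value of that test is given for them, and their fall rests on the detection calls. The third probe, A_51_P255467, which carries the name only in the soleus files, was not well above background on any C2C12 array.

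**Figure D1:**
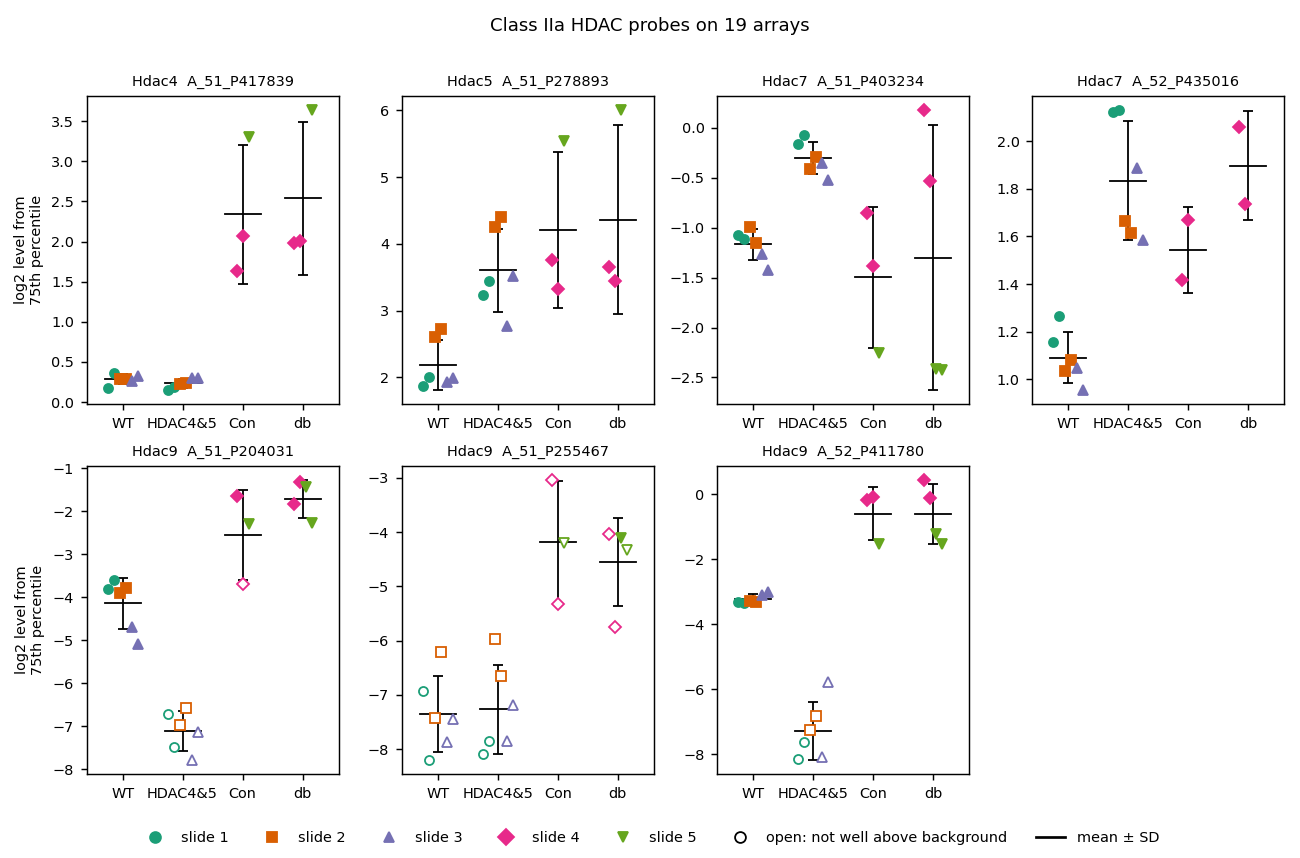
Level of each class IIa HDAC probe (log2 from the array's 75th percentile) on the 19 arrays, by group, with slides as symbols, open symbols for arrays where the probe was not well above background, and mean ± SD as lines; outlier spots are not drawn. Hdac5 and Hdac7 lie higher in HDAC4&5 than in WT without overlap, and Hdac9 has only open symbols in HDAC4&5. In soleus the diamonds of slide 4 and the triangles of slide 5 lie apart for Hdac4, Hdac5 and A_51_P403234 of Hdac7. A_52_P435016 of Hdac7 has soleus values on slide 4 alone.

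Mef2a, Mef2c and Mef2d were lower in HDAC4&5 cells at every tested probe, though with normexp 1 Mef2a probe (A_52_P290579) and 1 Mef2d probe (A_52_P334052) turned to 0.11 and 0.083, and Mef2b did not pass. In the fit reported the difference was largest for Mef2c, a factor of late myogenesis, which was well above background in WT alone. It was 1.18- to 2.34-fold at the probes of Mef2a and Mef2d. With normexp Mef2c differed by -1.19, and no largest difference is named under that setting.

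Mef2c probe A_51_P135802 read -2.45, -2.23 and -1.99 in WT (lowest, median, highest). It was well above background on 0 of 6 HDAC4&5 arrays, where the measured values were -8.16, -7.40 and -5.62. It was at least 8.83-fold lower by the bound used for Hdac9, and it too entered the test only through WT. With normexp the log2 difference was -1.19, a smaller fold than that bound. Of all tested probes 2.3% were, like this one and the Hdac9 pair, well above background on all WT arrays and on no HDAC4&5 array, which was so for 3 of the 14. The second Mef2c probe, A_52_P282110, was not well above background on any C2C12 array, with values up to -4.62.

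Mef2a, the MEF2 factor of most adult tissues, fell at A_52_P175157 and A_52_P311841, the probes well above background throughout both lines. A_52_P175157 read 0.60, 0.72 and 1.11 in WT and -0.52, -0.41 and -0.28 in HDAC4&5, a log2 difference of -1.18 (standard error 0.09, limma, adjusted p = 8.26e-08) or a fold of 2.27. A_52_P311841 differed by -0.67 (standard error 0.05, limma, adjusted p = 9.82e-08). A_52_P290579 was well above background on 5 of 6 HDAC4&5 arrays and entered the test only through WT, with a measured difference of -0.89. The 9 within-slide differences of the 3 probes lay between -1.30 and -0.60, and none of them had overlapping groups, though A_52_P290579 turned to 0.11 with normexp.

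Mef2d, which acts in differentiating myoblasts and has a muscle-specific splice form, fell at all 3 probes, by unequal amounts. A_51_P394676 read 4.24, 4.59 and 4.69 in WT and 3.06, 3.33 and 3.44 in HDAC4&5, a log2 difference of -1.23 (standard error 0.09, limma, adjusted p = 6.13e-08) or a fold of 2.34. A_51_P504672 differed by -0.24 (standard error 0.05, limma, adjusted p = 0.000821) and A_52_P334052 by -0.34 (standard error 0.07, limma, adjusted p = 0.000556). A_52_P334052 lies inside the 347 bases of genome that A_51_P504672 spans with a gap. Whether these 2 probes read the same transcripts was not tested. A_51_P394676 lies further along the gene. The groups of all 3 did not overlap, though for the 2 small differences the gap was narrow: A_51_P504672 read -1.05 at its lowest in WT and -1.06 at its highest in HDAC4&5.

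Mef2b, the most divergent MEF2 gene, was dim. A_51_P330580 read -4.76, -4.13 and -2.54 in WT and -4.03, -3.64 and -3.47 in HDAC4&5, with the fourth WT array far above the others. The log2 difference of 0.29 (standard error 0.29, 95% interval -0.35 to 0.93) did not pass (limma, adjusted p = 0.401). On slide 2 alone, which holds that array, the difference was -0.30, and without that slide it was 0.58 and passed. A_52_P9878, with its sequence above, was well above background on 0 of the 19 arrays and gives no level.

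Under normexp background correction of the raw spot intensity, which compresses dim probes, 6 of the 14 probes passed instead of 12. Those that kept the call were the probes of Hdac5 and Hdac7, A_52_P175157 of Mef2a, A_51_P135802 of Mef2c, which entered the test only through WT, and A_51_P394676 of Mef2d, while both Hdac9 probes and the other Mef2a and Mef2d probes lost it.

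**Figure D2:**
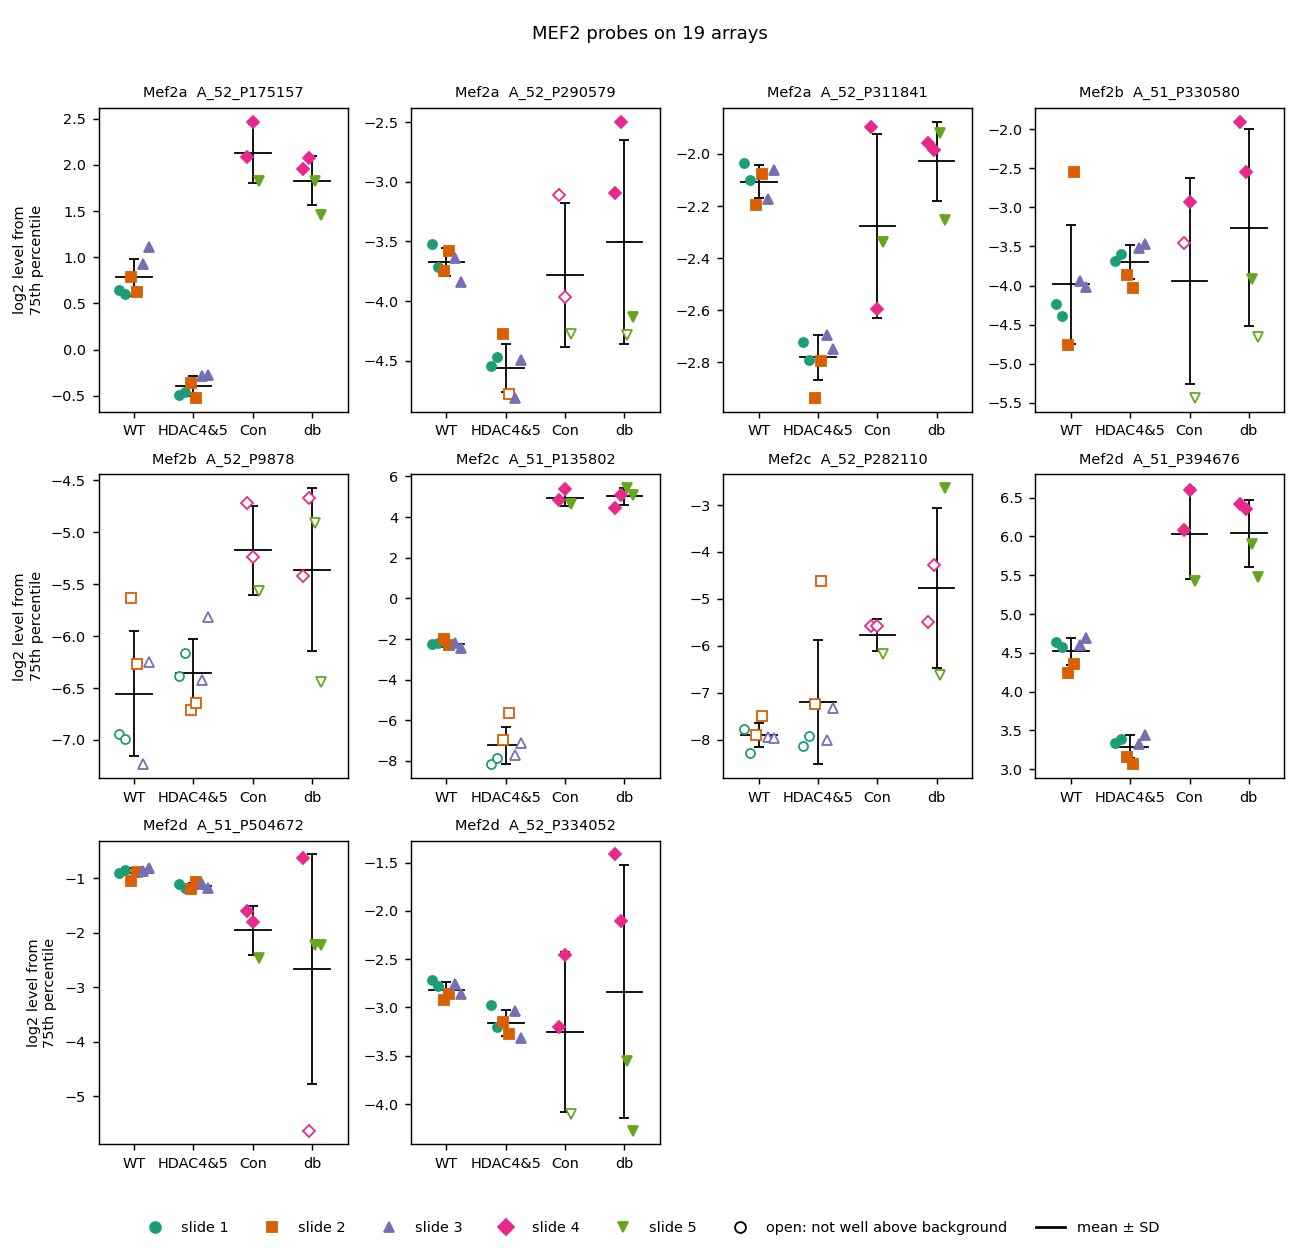
Level of each MEF2 probe (log2 from the array's 75th percentile) on the 19 arrays, drawn as for the deacetylases. All 3 Mef2a and all 3 Mef2d probes lie lower in HDAC4&5 than in WT, the first Mef2c panel has only open symbols in HDAC4&5 and values from 4.45 to 5.42 in soleus, and A_52_P9878 of Mef2b has only open symbols.

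**Figure D3:**
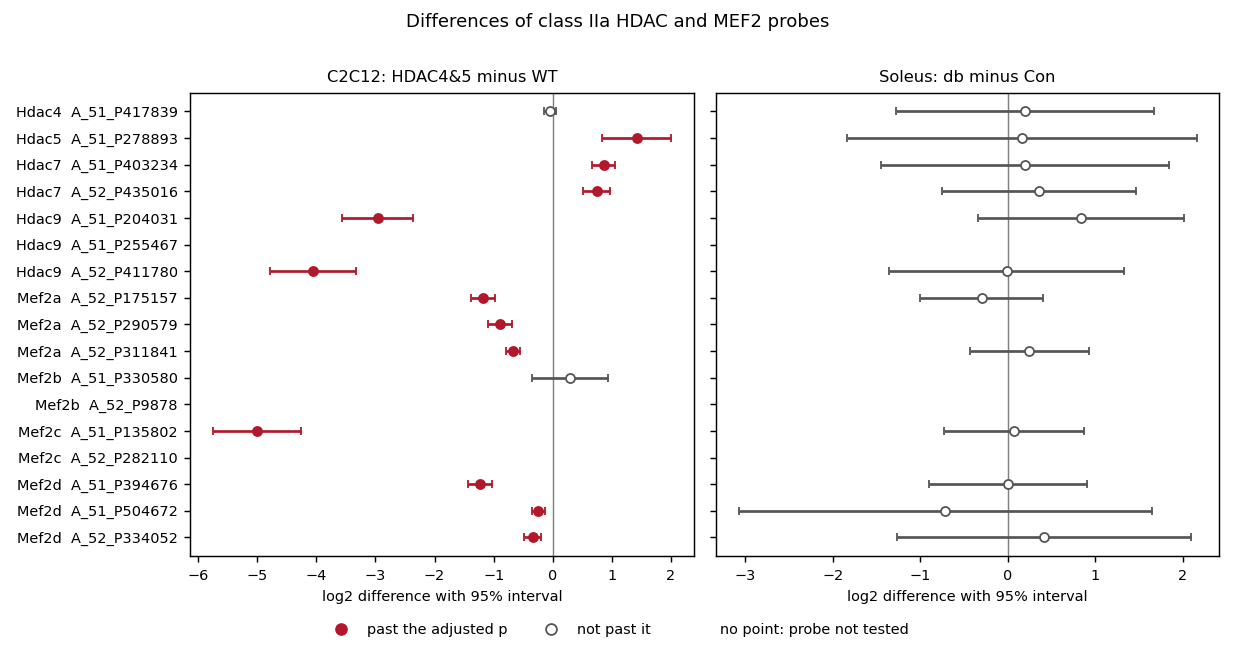
Log2 difference with its 95% interval from limma for each tested probe, HDAC4&5 minus WT on the left and db minus Con on the right, filled where the adjusted p was passed and with no point where the probe was not tested. In C2C12, 3 probes lie above 0 and 9 below it with the call, while all 12 soleus intervals include 0. Of the C2C12 probes 4 entered the test only through WT: both drawn for Hdac9, A_51_P135802 of Mef2c and A_52_P290579 of Mef2a. Without these 4, 3 lie above 0 and 5 below it with the call. In soleus A_51_P204031 of Hdac9 and A_52_P334052 of Mef2d entered the test only through db, and A_51_P504672 of Mef2d only through Con.

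The other genes of the pathway were taken as lists, with 1 probe a gene, and each count stands beside the share of all tested probes given above. The other zinc-dependent deacetylases, which carry most of the catalytic activity in cells, all rose slightly: 6 of 6 tested class I, IIb and IV genes were higher, with a median log2 difference of 0.41. Hdac1 went from 4.44 ± 0.11 to 5.15 ± 0.09 (SD, n = 6 each), a difference of 0.71. Hdac8 differed by 0.90, Hdac2 by 0.47, Hdac3 by 0.36, Hdac10 by 0.24 and Hdac6 by 0.23, with limma adjusted p-values from 3.73e-07 (Hdac1) to 0.0143 (Hdac6), and the groups of Hdac2 and Hdac6 overlapped. Hdac11 was well above background on 4 of 6 WT and 3 of 6 HDAC4&5 arrays and was not tested. With normexp 3 of the 6 passed and all 6 differences were above 0 (median 0.36, beside 0.16 for all probes). In the authors' deposited matrix 2 of the list passed and all 7 differences there were above 0 (median 0.18). The count of calls thus rests on the processing, while the direction did not turn in these settings.

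Among the sirtuins, the NAD-dependent deacetylases, 3 of 7 rose and 1 fell (median 0.21). With normexp 1 rose and 1 fell (median 0.077), and in the deposited matrix likewise (median 0.031), so the count rests on the processing. Sirt2 was higher by 0.57 and Sirt7 by 0.22, and Sirt5, the mitochondrial desuccinylase, was lower by -0.60. Of 15 corepressor partners 6 rose and 2 fell (median 0.08). Tbl1xr1 was higher by 0.45 and Ncor1, the scaffold that joins class IIa enzymes to Hdac3, by 0.37, while the heterochromatin protein gene Cbx5 differed by -0.68 and Bcor by -0.35. With normexp 1 corepressor was higher and 2 lower (median -0.03), and in the deposited matrix 0 and 2 (median -0.15), so no direction is given for the list.

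Kinases and phosphatases that act on class IIa enzymes went both ways, 7 of 22 higher and 10 lower (median -0.16), or 6 and 8 of the 19 above background throughout both lines. With normexp 4 were higher and 7 lower (median -0.13), and in the deposited matrix 4 and 10 (median -0.30). Prkaa2, the AMP-activated kinase subunit typical of muscle, was well above background on 0 of 6 WT arrays and 6 of 6 HDAC4&5 arrays, at least 5.77-fold higher in HDAC4&5. It entered the test only through HDAC4&5. Grk5, a kinase that phosphorylates HDAC5, was higher by 0.80. Sik1, a salt-inducible kinase that phosphorylates class IIa enzymes in muscle, went from -1.33 ± 0.12 to -3.72 ± 0.19 (SD, n = 6 each, well above background on 5 of 6 HDAC4&5 arrays), a difference of -2.39. It entered the test only through WT. Camk2a was well above background on 0 of 6 HDAC4&5 arrays and was at least 1.85-fold lower. Of the 8 genes for 14-3-3 proteins and nuclear export 1 rose, the exportin gene Xpo1 by 0.65, and 3 fell, among them Ywhaq by 0.85 and Sfn by 0.83 on the log2 scale (list median -0.13). That median was -0.26 with normexp and -0.31 in the deposited matrix.

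Activators and coactivators of MEF2 also went both ways, 7 of 19 higher and 7 lower (median 0.07, and -0.02 in the deposited matrix), or 7 and 5 of the 17 above background throughout both lines (median 0.16). With normexp 6 were higher and 4 lower. The kinase genes Map2k5, upstream of ERK5, and Map2k6, upstream of p38, were higher by 1.38 and 1.30. Vgll2, a muscle cofactor of TEAD and MEF2 proteins, which also entered only through WT, went from 2.84 ± 0.05 to -4.62 ± 0.24 (SD, n = 6 each, well above background on 5 of 6 HDAC4&5 arrays), a difference of -7.46. Mamstr, a muscle cofactor that binds MEF2, was well above background on 1 of 6 HDAC4&5 arrays, so that its measured difference of -2.80 rests on HDAC4&5 signals that were mostly not well above background.

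Most target genes were lower. Of 22 MEF2 target genes 19 were lower and 1 higher, with a median log2 difference of -3.62, or -3.07 with the 7 genes that were well above background on no HDAC4&5 array at their bounds. With normexp 13 were lower and 1 higher, with a median of -1.55 beside 0.16 for all probes. Of the 22, 13 entered the test only through WT, and of the 9 others 6 were lower and 1 higher, with a median of -0.63. Myog, the myogenin gene and a classic MEF2 target that entered the test only through WT, went from 4.38 ± 0.09 to -5.27 ± 0.36 (SD, n = 6 each), where it was well above background on 3 of 6 arrays (measured log2 difference -9.65). Des, above background throughout both lines, fell by 8.45 on the log2 scale, with the WT mean capped by saturated spots on 2 of 6 arrays. The gene that rose was Ppargc1a, the PGC-1α coactivator, by 1.41. Eno3, the muscle enolase, and Klf2 did not pass, and Eno3 was saturated on all 6 WT and all 6 HDAC4&5 arrays, so no difference in it could be measured. The list overlaps the markers, with Des also a myoblast marker and Mb also a slow fibre marker.

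Of 13 denervation response genes 11 fell and 1 rose (median -2.70), or 8 and 1 of the 10 well above background on every array of both lines (median -1.53). Chrng, the fetal acetylcholine receptor subunit, went from 3.88 ± 0.13 to a measured -4.99 ± 0.56 (SD, n = 6 each), where it was well above background on 3 of 6 arrays, and Gadd45a, a stress gene known to rise through HDAC4 after nerve loss, was higher by 0.82 (limma, adjusted p = 7.06e-06). Of 8 myogenic factors tested 7 fell and 1 rose (median -1.64), or 4 and 1 of the 5 well above background throughout (median -1.14). These were Myog, Myod1, Myf6, the partner Tcf3 and the inhibitors Id1, Id2 and Id3 below, and the E-protein gene Tcf12 above, by 0.57. Myog, Myod1 and Myf6 entered the test only through WT. The 5 above background throughout were thus Tcf3, Tcf12 and the inhibitors Id1, Id2 and Id3, so their median is not one of MyoD family genes. The 3 lists share genes with each other, Myog in all of them, so their counts are not independent.

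**Figure D4:**
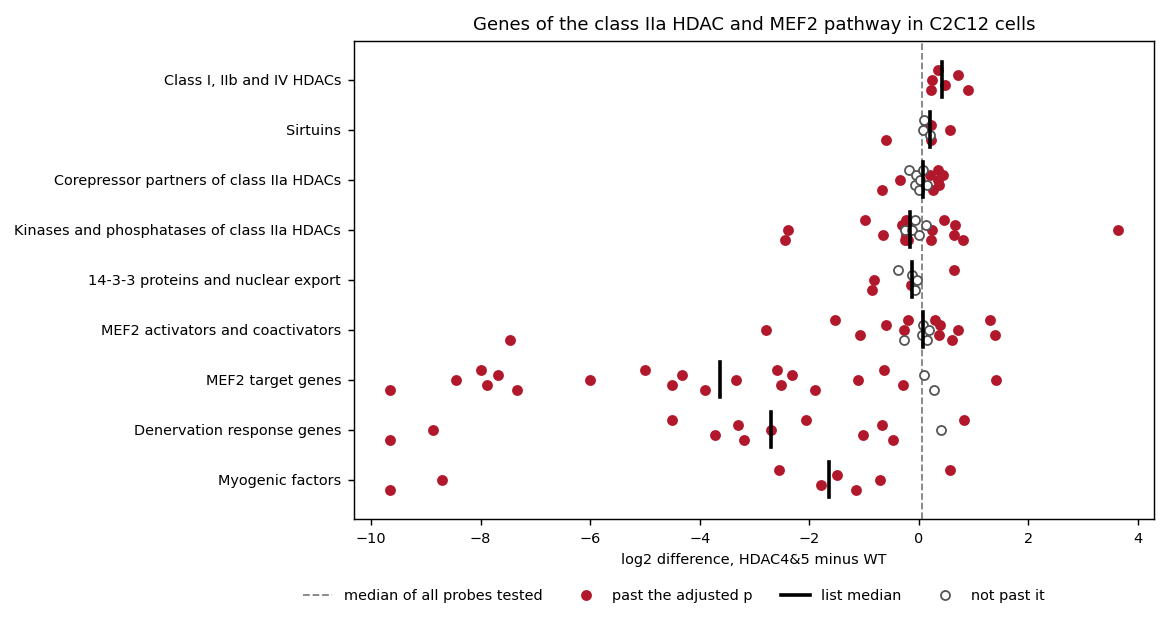
Log2 difference (HDAC4&5 minus WT) of each tested gene of 9 pathway lists in C2C12 cells, filled where the adjusted p was passed, with a bar at each list's median and a dashed line at the median of all tested probes, 0.05. The MEF2 target, denervation and myogenic lists lie far to the left of the dashed line with medians of -3.62, -2.70 and -1.64, and the 6 class I, IIb and IV deacetylases lie just to its right.

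In soleus muscle no class IIa deacetylase or MEF2 probe differed between db and Con past the threshold. Of 18471 tested probes 1 passed the adjusted p in limma (0.00541%), and 0 of 12 probes of these genes did. At an unadjusted p under 0.05, 6.45% of all tested probes passed and 0 of the 12. Of the 12, A_51_P204031 of Hdac9 and A_52_P334052 of Mef2d entered the test only through db. A_51_P504672 of Mef2d entered it only through Con. The intervals were wide, and they come from a fit without the slide. With slide as a block the standard error went from 0.85 to 0.24 for Hdac5 and from 0.63 to 0.23 for Hdac4, while for Hdac9 A_51_P204031 it stayed at 0.51.

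Both groups were present on slides 4 and 5, and the 2 slides stood apart for several of these genes. On slide 4, Hdac4 read 1.64 and 2.07 in Con and 1.98 and 2.00 in db; on slide 5 it read 3.31 in Con and 3.63 in db, where the spot of a second db array, replicate 3, was marked as an outlier and left out. The groups overlapped, and the slides did not. The log2 difference was 0.20 (standard error 0.63, 95% interval -1.28 to 1.67; limma, adjusted p = 0.980). Hdac5 read 3.76, 3.32 and 5.54 in Con and 3.65, 3.44 and 6.00 in db, with the fourth db spot left out as an outlier. The high value of each group was again that of slide 5, and the difference was 0.16 (95% interval -1.84 to 2.16; limma, adjusted p = 0.987). Within slides 4 and 5 it was 0.01 and 0.46.

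Hdac7 probe A_51_P403234 ran the opposite way by slide. It read -0.86, -1.39 and -2.25 in Con and 0.17, -0.54, -2.41 and -2.43 in db, so that the 3 arrays of slide 5 were lowest. Within slide 4 the db arrays were higher by 0.94 and within slide 5 the difference was -0.17. A_52_P435016 kept 2 spots in each group after outliers, 1.42 and 1.67 in Con and 2.06 and 1.73 in db, all on slide 4. These groups did not overlap, as for 10.2% of all tested soleus probes, and the difference of 0.35 did not pass (limma, adjusted p = 0.936).

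Hdac9 was readily detected in muscle. A_52_P411780 read -0.17, -0.08 and -1.52 in Con and 0.43, -0.10, -1.23 and -1.52 in db, a difference of -0.01 (95% interval -1.35 to 1.33). Within slides 4 and 5 the difference of this probe was 0.29 and 0.15. A_51_P204031 read -1.66, -3.70 and -2.30 in Con, the second of them not well above background, and -1.82, -1.32, -1.45 and -2.28 in db. Its difference was 0.84 (95% interval -0.34 to 2.01). This probe entered the test only through db, so no p-value of that test is given for it. The third probe, A_51_P255467, was well above background on 1 of the 7 arrays.

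Mef2c was bright and even: 4.83, 5.37 and 4.63 in Con and 4.45, 5.11, 5.42 and 5.10 in db. The groups overlapped, and the difference of 0.07 had a 95% interval of -0.73 to 0.87 (limma, adjusted p = 0.987). Mef2a probe A_52_P175157 read 2.08, 2.46 and 1.82 in Con and 1.96, 2.07, 1.83 and 1.45 in db, a difference of -0.30 (standard error 0.31). Mef2d probe A_51_P394676 read 6.08, 6.60 and 5.43 in Con and 6.42, 6.35, 5.90 and 5.48 in db, a difference of 0.00 (95% interval -0.90 to 0.90). None of these 3 probes separated the groups. Mef2d probe A_51_P504672 had 1 value far below the rest, -5.63 in db replicate 2, not well above background, against -0.62, -2.21 and -2.22 in the other db arrays. Its difference was -0.72 with that array and 0.27 without it. Of the remaining MEF2 probes, A_52_P311841 of Mef2a differed by 0.25 and A_52_P334052 of Mef2d by 0.41 without passing, and A_52_P290579 of Mef2a, both Mef2b probes and A_52_P282110 of Mef2c were not well above background on every array of either group and were not tested. Mef2b probe A_51_P330580 was well above background on 1 of 3 Con and 3 of 4 db arrays.

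With slide as a block 32 soleus probes passed, and with the replicate block, the same number paired across groups, 1 did; 0 of these genes' probes passed under either. Of 119 genes of the pathway lists tested in soleus, 0 passed the adjusted p in limma and 6 passed at an unadjusted p under 0.05. The median log2 differences of the lists in soleus lay between -0.26 (MEF2 target genes) and 0.42 (class I, IIb and IV deacetylases), beside 0.02 for all tested probes.

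Muscle holds several cell types, and their markers differed between these arrays. Soleus fibres were present by label and marker, with 8 of 8 slow and 8 of 8 fast fibre markers well above background on every array. The summed slow marker level, with outlier spots kept, was 2220, 2773 and 1049 in Con and 2304, 2179, 851 and 906 in db, lowest on the slide 5 arrays of both groups. The summed fast marker level was 1644, 2178 and 718 in Con and 1816, 1245 and 544 in db replicates 1 to 3 and lower still in replicate 4, again lowest on slide 5. The 2 groups overlapped in both, and the sums are capped: 8 of 8 slow markers were saturated on each slide 5 array and 5 or 6 on each slide 4 array, and 3 to 5 of 8 fast markers on any array. The summed endothelial level, with Emcn the brightest probe, was 61.9, 49.8 and 53.6 in Con and 45.5, 23.8, 33.1 and 26.0 in db. The groups did not overlap, and all 8 endothelial markers were well above background on every array. Fibroblast markers, with Col3a1 or Dcn the brightest probe, summed to 598, 585 and 524 in Con and 357, 317, 354 and 460 in db. These sums did not overlap either, also over the 5 genes without an outlier spot on any array, but 4 markers were saturated on Con replicate 3, 2 on db replicate 3 and 4 on db replicate 4, so the sums of these arrays are lower limits and no order of the groups is read from them. Macrophage markers, with Lyz2 the brightest probe, summed to 38.6, 51.6 and 124 in Con and between 45.9 and 117 in db. Adipocyte markers, with Fabp4 the brightest probe, summed to 384, 441 and 226 in Con and 259, 311, 172 and 193 in db. Both overlapped, with 1 macrophage and 1 adipocyte marker saturated on each slide 5 array. On db replicate 2, a slide 4 array, 1 adipocyte marker was saturated as well. Lymphocyte, Schwann cell and epithelial markers summed to at most 6.59 on any soleus array. Erythroid markers, with Hba-a1 the brightest probe, summed to 333, 144 and 132 in Con and 81.8, 150, 114 and 106 in db, and the highest value rests on an Hba-a1 spot marked as an outlier. These sums are capped by 1 saturated marker on Con replicates 1 and 3 and on db replicates 3 and 4. No single gene of these lists passed the adjusted p in limma, and their part in the values of the deacetylase and MEF2 genes was not tested.

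Con soleus was set against WT C2C12 with limma, a comparison in which tissue, slide, RNA extraction and growth cannot be told apart and which shares its samples with the comparisons above. It called 74.3% of 22559 tested probes, and 9 of 14 probes of these genes, 8 higher in Con and 1 lower (34.4% and 39.9% of all tested probes). A_51_P204031 of Hdac9, A_52_P290579 of Mef2a, A_51_P330580 of Mef2b and A_52_P334052 of Mef2d entered the test only through WT, and of these only the Hdac9 probe passed. For Hdac7, A_52_P435016 with 2 Con spots was higher in Con (0.45, or 0.12 and not past the threshold with normexp). The other Hdac7 probe, A_51_P403234, differed by -0.33 and did not pass. The 2 groups did not overlap for 8 of the 14 probes and for 69% of all tested probes. Mef2c moved most: from -2.23 ± 0.15 (SD, n = 6) in WT to 4.95 ± 0.39 (SD, n = 3) in Con, a log2 difference of 7.17 (standard error 0.18, limma, adjusted p = 2.98e-10). The order for Mef2c was therefore HDAC4&5 below WT, WT below Con, and Con and db not apart beyond their spread.

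Hdac9 had the same order at A_52_P411780, with Con above WT by 2.64 (standard error 0.29, limma, adjusted p = 1.38e-05). Mef2d at A_51_P394676 and Mef2a at A_52_P175157 also lay lowest in HDAC4&5, then WT, then both soleus groups, with Con above WT by 1.52 and 1.34. Both probes carry the gene's name only in the C2C12 files, and the other probes of these genes did not give this order. Hdac4 differed from these: WT and HDAC4&5 were not apart, and Con was above WT by 2.06 (standard error 0.30, limma, adjusted p = 0.000115). For Hdac5 Con was above WT by 2.02 (limma, adjusted p = 0.00171), with the HDAC4&5 range of 2.77 to 4.40 overlapping the Con range of 3.32 to 5.54. The probes of a gene did not all give 1 order: A_51_P504672 of Mef2d was lower in Con than in WT by 1.06 in size (limma, adjusted p = 0.000458), while A_51_P394676 was higher. A_52_P334052 of Mef2d (-0.44) and A_52_P290579 and A_52_P311841 of Mef2a (-0.11 and -0.17) did not pass.

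RefSeq promoters on GRCm38.p6, from 250 bases before to 50 after each annotated start, were listed for all 8 genes. The consensus MEF2 motif was searched on both strands and was found in 2 of the 8 genes, Hdac5 and Mef2a, against 3.70% of all genes in the table (3.19% of all promoters). Each match is shown with 10 bases on either side, 5′ to 3′ on the gene's strand, the minus strand for both, with the motif in capitals; the Hdac5 window lies at chr11:102230173-102230202 and the Mef2a window at chr7:67372841-67372870.
Hdac5: gggtctgagcCTATTTTTAGctcggggtcg
Mef2a: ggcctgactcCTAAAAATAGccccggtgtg
The Hdac5 match begins 20 bases before the annotated start and the Mef2a match 2 bases before it. Probe signals of the 2 genes moved in opposite directions in HDAC4&5 cells, Hdac5 up and Mef2a down. Whether the Hdac5 signal there includes transcripts of the human HDAC5 plasmid was not tested. Of the MEF2 target list, 5 of the 16 genes with a listed promoter held the motif within this window (31.2%), namely Pgam2, Xirp2, Klhl41, Jun and Klf2. The E-box CANNTG, the site of the MyoD family, was found in 5 of the 8 genes and in 20265 of 27025 genes of the table. A match is a run of letters in this window and not a site shown to be bound.

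For the 5 genes whose probe of highest mean was well above background on all 19 arrays, the genes with the most similar profile were looked up among 7081 probes of other genes, as the root mean square difference over the arrays with a value, each probe centred on its own mean. Mef2d at A_51_P394676 was closest to Fbxl20 (0.16 log2 units over 19 arrays) and C030006K11Rik (0.22), and Mef2a at A_52_P175157 to Ttc30b (0.16) and Haghl (0.20). Hdac7 at A_52_P435016 was closest to Rhobtb2 and Rcc1l (both 0.18, over 16 arrays), and Hdac4 to 9930021J03Rik and Asnsd1 (both 0.20, over 18 arrays). For Hdac5 the nearest, Selenok-ps1, was 0.46 away over 18 arrays, and the next, listed in the files as ENSMUST00000071374, 0.49. None of these neighbours was a member of the pathway lists.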

How the data were processed

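Cy3-labelled RNA was scanned by the authors on 1-colour Agilent mouse arrays, and Agilent Feature Extraction 9.5.1.1 wrote the deposited spot intensity. The authors' deposited series matrix holds a linear ratio to a per-array centre, with column medians of 0.980 to 0.995 in C2C12 and 1 in soleus. Its C2C12 columns match the scanner signal of their own arrays up to a constant (SD of the log2 difference about 0.002), so they are turned the same way and not centred by gene. Columns named for db 1 and db 2 hold the scanner values of db 3 and db 4, and 4 soleus columns match no scanner file closely, which leaves their centring unknown. The matrix was used by group and as an alternative only. Levels here are log2 of the processed signal minus each array's 75th percentile, with spots of a probe averaged and outlier spots left out. Each comparison was fitted on its own groups with limma 3.58.1 in R 4.3.3, over probes well above background throughout 1 or both groups, with Benjamini-Hochberg adjustment over all of them at 0.05. The number of arrays limits the precision. Bounds ("at least") set the bright group's mean against, per array, the higher of the lowest signal well above background and the dim probe's own.

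Slide, replicate number, quantile and normexp (offset 50) settings, filters and the methods' t-test were tried as alternatives, and the fitting code was tested on simulated data. Deviations of same-numbered samples correlated at 0.37 to 0.70 in C2C12 and 0.45 to 0.73 in soleus. Other numbers of the same slide correlated alike, at 0.36 to 0.72 and 0.36 to 0.80. Across slides the values were -0.64 to 0.10 and -0.77 to -0.38, so no pairing by number beyond the slide was seen. Symbols were updated through RefSeq accessions for 27198 probes. The members and lists were chosen with earlier results of these data known. Named were all members, every class I, IIb and IV deacetylase, the 2 largest rises and 2 largest falls of each list among called genes without overlap, the 2 nearest profiles, and defining markers; Eno3, Klf2, Myf6, Tcf3, Id1, Id2, Id3 and Mb were named after their values were seen.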

Additional observations from a re-analysis of the deposited data

Results flagged for a closer look

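Over 48 sets of values, a probe in a group of 4 to 6 arrays, 3 had 1 array far from the rest by Dixon's test, where chance gives about 1 in 20. Mef2b probe A_51_P330580 read -2.54 on WT array 4, and the other WT arrays read -4.76 to -3.95. Mef2c probe A_52_P282110 read -4.62 on HDAC4&5 array 4, not well above background, and the other HDAC4&5 arrays read -8.13 to -7.23. Mef2d probe A_51_P504672 read -1.05 on WT array 3, and the other WT arrays read -0.89 to -0.81.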

How the results depend on the processing

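Of the alternative values of the tested probes that came with a test, 162 of 169 in C2C12 kept direction and call, 4 lost the call, 1 gained it and 2 reversed; in soleus, where no call was made, 160 kept direction and 32 reversed; in Con against WT 108 kept both, 7 gained the call, 4 lost it and 9 reversed. Of the values of single slides, which have no test, 1 of 42 in C2C12 turned sign, Mef2b A_51_P330580 at -0.30 on slide 2, and 5 of 23 in soleus. With 1 probe a gene 9622 probes passed in C2C12 (6 of the class IIa and MEF2 probes) and 11151 in Con against WT, where 32579 passed without a filter on dim probes; fewer or more features were tested by construction. With normexp 6 class IIa and MEF2 probes passed in C2C12, and in the lists 3 class I, IIb and IV deacetylases, 2 sirtuins, 3 corepressors and 11 kinases and phosphatases. In the deposited matrix these were 2, 2 and 2 for the first 3 lists and 12 for MEF2 targets, and with a stricter filter on dim probes 7 MEF2 targets and 5 myogenic factors passed. Soleus calls, 1 in the fit reported, were 3 with quantile normalization, 0 with normexp, 0 with the stricter filter, 32 with slide as a block, 3 with the methods' t-test, 0 in the matrix and 0 to 1 leaving out 1 array. With the replicate block 16288 probes and 12 of the class IIa and MEF2 probes passed in C2C12, and 1 and 0 in soleus; the block moved no count of calls given here by over 1.5 times. The cause of these differences was not tested.

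With normexp the C2C12 differences of Mef2a A_52_P290579 and Mef2d A_52_P334052 reversed to 0.11 and 0.083. In soleus, Hdac5 turned to -0.065, Hdac9 A_52_P411780 to 0.15, Mef2c to -0.13 and Mef2d A_51_P394676 to -0.22 with quantile normalization, and Hdac7 A_51_P403234 to -0.070, Mef2a A_52_P311841 to -0.17 and Mef2d A_52_P334052 to -0.062 with normexp. With outlier spots kept Hdac7 A_52_P435016 was -0.21. Hdac9 A_52_P411780 was 0.23 with slide as a block, 0.29 with the replicate block and 0.27 in the matrix, where Mef2d A_51_P504672 was 0.25. Leaving out 1 soleus array at a time gave -0.35 to 0.68 for Hdac4, -0.66 to 0.82 for Hdac5, -0.29 to 0.57 for Hdac7 A_51_P403234, -0.48 to 0.29 for Hdac9 A_52_P411780, -0.087 to 0.29 for Mef2c, and, for Mef2d, -0.30 to 0.28 at A_51_P394676, -1.40 to 0.27 at A_51_P504672 and -0.060 to 0.89 at A_52_P334052. In Con against WT, normexp gave 0.078 for Hdac7 A_51_P403234, 0.88 for Mef2a A_52_P290579, 0.46 for Mef2a A_52_P311841 and 0.46 for Mef2d A_52_P334052, and quantile normalization gave -0.81 for Mef2b A_51_P330580. Leaving out 1 array gave -0.65 to 0.047 for Hdac7 A_51_P403234, -0.45 to 0.14 for Mef2a A_52_P290579 and -0.46 to 0.79 for Mef2b A_51_P330580. Signal near background limits Hdac9, Mef2b and the second Mef2c probe.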
